A study of Rattus norvegicus with 6 samples.

Results

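The natriuretic peptide system of the rat right ventricle (RV) was described through 8 genes, chosen by name: the ligand genes Nppa, Nppb and Nppc, the receptor genes Npr1, Npr2 and Npr3, and the genes of the processing enzymes Corin and Furin. Of these, 7 are among the 12958 named genes used here, and Nppc was not analysed here. All rats were male Sprague-Dawley animals. The 3 control RV libraries were taken at day 0 from rats with no SuHx treatment, and the 3 SuHx libraries at 8 weeks from rats given SU5416, a blocker of VEGF receptor signalling, and then kept in hypoxia before a return to normoxia. The submitters class the SuHx RV as decompensated, or maladaptive, and the comparison asks what distinguished it from control RV. Among these libraries neither SU5416 nor hypoxia was given alone, and with no untreated RV of 8 weeks the 8 weeks of growth cannot be told apart from the model. The labels give no number that links a SuHx library to a sample, so those libraries are lettered A, B and C. Values of single libraries are listed throughout in the order control 1, 2, 3 and then SuHx A, B, C.

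Cardiomyocytes make atrial natriuretic peptide (ANP, from Nppa) and B-type natriuretic peptide (BNP, from Nppb) as precursors and release them when the wall of a chamber is stretched. Corin, a protease on the myocyte surface, cleaves the ANP precursor, and Furin, a convertase of the secretory pathway, cleaves the BNP precursor. Both peptides act through Npr1, a receptor that makes cyclic GMP, while Npr2 is the cyclic GMP-making receptor of C-type natriuretic peptide (from Nppc), and Npr3 binds all these peptides and removes them from the circulation. In the healthy adult heart Nppa is a gene of the atria, and its transcript returns in ventricles under load, which together with BNP in blood is a widely used sign of a strained ventricle.

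Nppa and Nppb lie next to each other on chromosome 5 of the rat, and the 250 bases before their RefSeq start sites (build GRCr8) are shown because both genes differ so widely between these libraries. Capitals mark GATAA, the core bound by GATA factors such as Gata4, CATTCC, the M-CAT letters bound by TEAD factors such as Tead1, and TATAAA, the TATA box. GATAA and CATTCC were searched on both strands and TATAAA on the strand of the gene, and none of the matches overlap.

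Nppa, chr5:163711934-163712183, plus strand: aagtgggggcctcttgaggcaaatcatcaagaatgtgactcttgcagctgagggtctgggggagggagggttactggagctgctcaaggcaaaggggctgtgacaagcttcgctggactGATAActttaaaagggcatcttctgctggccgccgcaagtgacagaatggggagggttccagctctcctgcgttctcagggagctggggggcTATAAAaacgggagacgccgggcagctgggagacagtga

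Nppb, chr5:163699758-163700007, plus strand: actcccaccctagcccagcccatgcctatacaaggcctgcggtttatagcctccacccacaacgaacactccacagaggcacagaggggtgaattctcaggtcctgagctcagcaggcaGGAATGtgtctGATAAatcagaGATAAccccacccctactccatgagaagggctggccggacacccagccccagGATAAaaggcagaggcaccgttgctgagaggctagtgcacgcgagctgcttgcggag

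The Nppa window held 1 GATAA, 131 to 127 bases before the start, and a TATAAA 39 to 34 bases before it. In the Nppb window there were 3 GATAA, the first 120 to 116, the second 109 to 105 and the last 57 to 53 bases before the start, with the M-CAT letters (GGAATG as read on this strand) 131 to 126 bases before it. Among 33469 RefSeq promoter windows of the same length, 23.5% held a GATAA and 4.49% held 2 or more, 12.1% held CATTCC and 8.06% held TATAAA. Searches on both strands for TNAAGTG (an NKX2-5 element), TGANTCA (AP-1) and the CArG box gave 0 matches in the Nppa and Nppb windows, and these were in 9.89%, 6.34% and 1.5% of all windows. A match is a description of letters and not a site in use. Entries were found for 6 of the 8 genes, and Npr2 and Furin had none.

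Before the comparison, the tissue label was checked against markers of the chambers. Normalised counts summed to between 11607609 and 12393415 in control libraries and to between 12754296 and 18249330 in SuHx libraries, of which mitochondrial transcripts took 52.0% to 56.9% and 55.0% to 67.5%. The ventricular myosin light chain gene Myl2 stood at 8362, 14304 and 18658 normalised counts in the controls, against 18448, 13727 and 11905 in SuHx. Ventricular Myl3 and Irx4 were likewise present in every library, and control 1 had the lowest value of Myl2, Myl3 and Irx4 alike. Control 1 differed from the 5 other libraries in atrial markers. Myl7, the atrial myosin light chain, was at 1353 normalised counts in control 1, was listed at 0 in controls 2 and 3, and stood at 5.43, 6.90 and 0 in SuHx. Bmp10, an atrial ligand of the BMP family, was at 2363 in control 1 and listed at 0 elsewhere. Sln, which encodes sarcolipin, was at 560.4 in control 1 and at most 7.17 in any other library. Myl4, the other atrial light chain, was at 9629 in control 1 and between 15.6 and 58.1 in the others. Of 19 atrial markers with a value, 13 were highest in control 1. Myl7, Sln and Bmp10 were at or near 0 in every SuHx library, whereas Myl4 stood at 54.7, 58.1 and 41.0 there. The summed level of all 19, to which Pam alone gave 6908 to 32247, was 42999, 18988 and 10483 in the controls, against 28358, 32101 and 36703 in SuHx. Fold changes of the 7 genes and their ratios are therefore given with and without control 1.

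**Figure D1:**
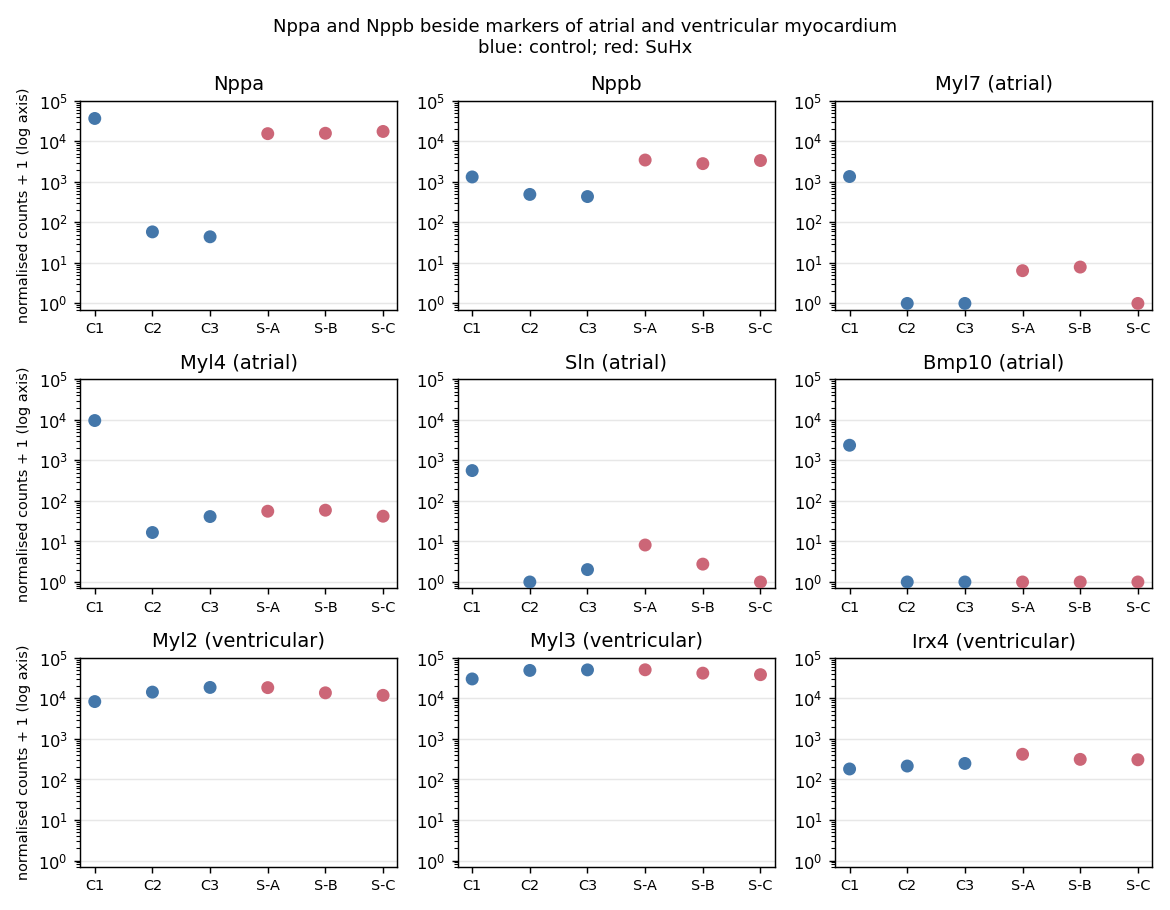
Normalised counts plus 1 (log axis) of Nppa, Nppb, 4 atrial and 3 ventricular marker genes in control libraries 1 to 3 (C1 to C3, blue) and SuHx libraries A to C (S-A to S-C, red), 1 point for each library. Control 1 is high in Nppa, Myl7, Myl4, Sln and Bmp10, whereas the SuHx libraries are high in Nppa with Bmp10 listed at 0, Myl7 at no more than 6.90 and Myl4 at 41.0 to 58.1.

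In the SuHx RV the transcripts of Nppb and of the clearance receptor Npr3 rose about 5-fold, those of Npr1, Npr2, Corin and Furin did not pass the test, and Nppa passed only once control 1 was left out. Across all 6 libraries 2 of the 7 genes were higher in SuHx at an adjusted p under 0.05 from limma, 0 were lower and 5 did not pass, and p under 0.05 before adjustment gave the same 2 and 0. Before adjustment 9.61% of all genes tested were higher and 7.59% lower. The background over all 10725 genes tested was 1.55% higher and 0.671% lower (166 and 72 genes, or 90 and 191 with all libraries at the same total). Without control 1, 3 of the 7 were higher and 0 lower, with 1.12% higher and 0.187% lower among 10696 genes (120 and 20). Every SuHx library lay above every control for 2 of the 7 genes, against 12.9% of all genes, and for 3 without control 1, against 17.7%. The median log2 fold change of the 7 was -0.046 and that of all genes was 0.0095 (0.48 and 0.0046 without control 1). Whether each library is from a separate rat is not in the labels, and all p-values refer to the spread between libraries, which may be technical. In bulk tissue, fewer cells of a type and less RNA per cell cannot be told apart.

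**Figure D2:**
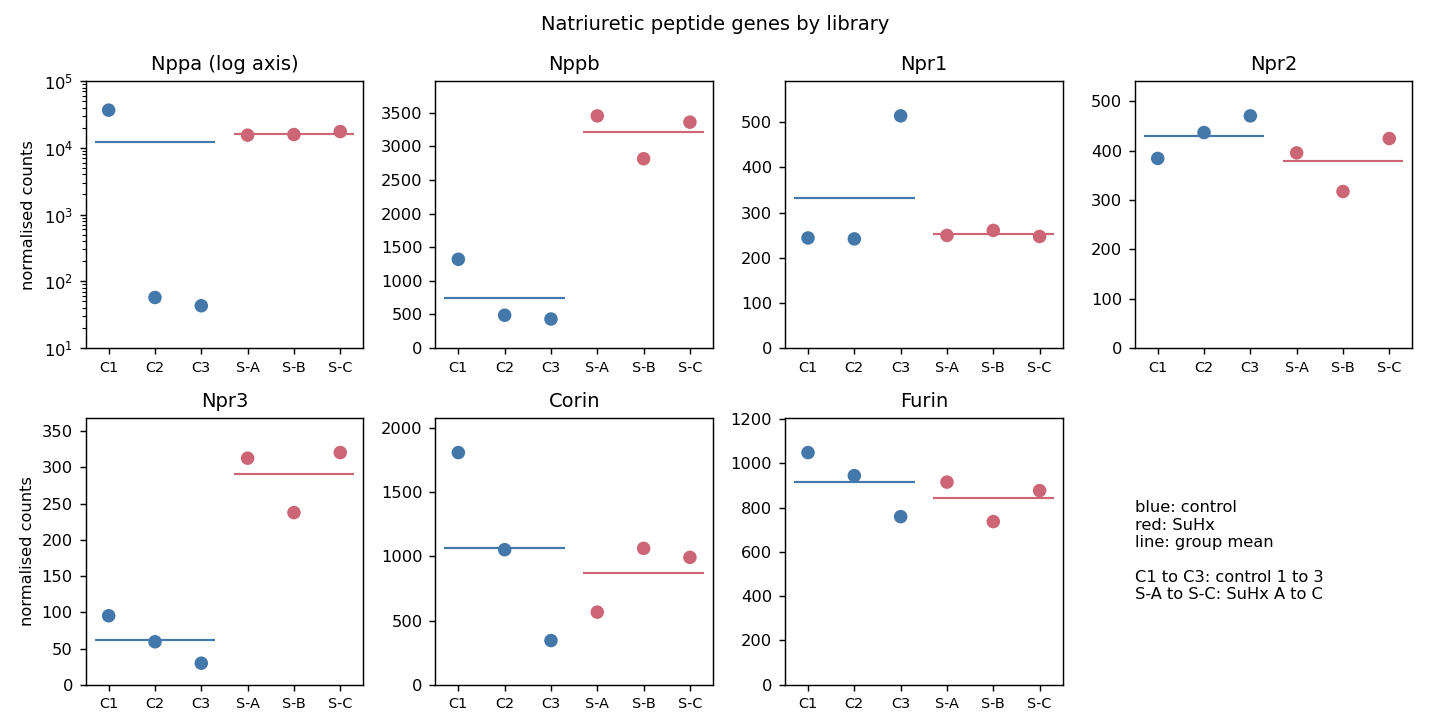
Normalised counts of the 7 measured genes in control libraries 1 to 3 (C1 to C3, blue) and SuHx libraries A to C (S-A to S-C, red), with a line at each group's mean and a log axis for Nppa only. For Nppb and Npr3 every SuHx point lies above every control point, while for Nppa control 1, at 36639, lies above all the others.

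Nppa, the ANP gene, stood at 36639, 57.3 and 43.1 normalised counts in the controls, against 15462, 15802 and 17508 in SuHx. Controls 2 and 3 were low and close to each other, the 3 SuHx libraries were high and close to each other, and control 1 was higher than any of them. Control 1 had 2.25 times the SuHx mean and 730 times the mean of controls 2 and 3. Across the 6 libraries the means were 16257 ± 1096 in SuHx and 12246 ± 21125 in control (SD, n = 3 per group), and the log2 fold change was 5.16 with a standard error (SE) of 2.34 and a 95% interval from -0.31 to 10.62 (limma adjusted p = 0.31). Without control 1 the log2 fold change was 8.32 with an SE of 0.18 (limma adjusted p = 1.6e-05), the lowest p of the 10696 genes tested there. This is a 320.2-fold difference on the log2(value + 1) scale, with a 95% interval from 236-fold to 434-fold. Control 1 was set aside for its atrial transcripts, Nppa is itself an atrial transcript, and 2 controls are left. The p, its rank and the interval therefore hold only given that choice. Without controls 1 and 3 together the log2 fold change was 8.12, with 1 control left. In SuHx the high Nppa level came with atrial Bmp10 listed at 0 and Myl7 at no more than 6.90 normalised counts. Atrial Myl4 was at 54.7, 58.1 and 41.0 in SuHx, against 15.6 and 40.2 in controls 2 and 3. The summed level of the 19 atrial markers was also higher in every SuHx library than in controls 2 and 3, but Pam made up most of it. Pam gave 24071, 26886 and 32247 of the sums of 28358, 32101 and 36703 in SuHx. In controls 2 and 3 it gave 13217 and 6908 of 18988 and 10483. The sum without Pam was not compared. The part of atrial transcripts in the SuHx level of Nppa was not tested.

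Nppb, the BNP gene, stood at 1321, 489 and 433 normalised counts in the controls, against 3453, 2815 and 3359 in SuHx. The groups did not overlap, and the lowest SuHx library had 2.13 times the level of control 1, the highest control. Nppb rose with a log2 fold change of 2.29 (SE 0.40, 95% interval 1.36 to 3.22, limma adjusted p = 0.038), a 4.88-fold difference. Without control 1, where Nppb was 2.87 times the mean of controls 2 and 3, the log2 fold change was 2.79 (SE 0.17, limma adjusted p = 0.0025). Its p ranked 5 among all genes there, against 165 over the 6 libraries. That fit leaves out the highest control and keeps 2, so its p and rank hold only given that choice. The coefficient of variation of Nppb was 10.7% in SuHx and 66.6% in control. The call depended on which library was left out. The limma adjusted p was 0.097 without control 2, 0.14 without SuHx A, 0.11 without SuHx B and 0.16 without SuHx C, with log2 fold changes between 2.08 and 2.38, and it was 0.042 without control 3.

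Of the receptors, the one that passed the test was Npr3, which clears the peptides and does not make cyclic GMP. Npr3 stood at 95.3, 59.4 and 29.8 normalised counts in the controls, against 313, 238 and 320.4 in SuHx. Each SuHx library was above each control, the lowest of them 2.49 times the highest control. Npr3 rose with a log2 fold change of 2.36 (SE 0.39, 95% interval 1.44 to 3.27, limma adjusted p = 0.033), a 5.12-fold difference. Without control 1, the highest control for Npr3, it was 2.74 (SE 0.32, limma adjusted p = 0.020), with 2 controls left. As for Nppb, the call was lost without control 2 (adjusted p = 0.083), SuHx A (0.13), SuHx B (0.094) or SuHx C (0.16), with log2 fold changes between 2.28 and 2.49, and kept without control 3 (0.014). Npr3 is also a gene of endocardium, fibroblasts and valves, and the summed levels of such markers overlapped between the groups, at 33452 to 52077 in control and 34893 to 39644 in SuHx for 10 fibroblast genes, 6740 to 11052 and 7223 to 8897 for 10 endothelial genes, and 195 to 658 and 249.8 to 762 for 5 valve genes. Sums that did not overlap were those of 9 cardiomyocyte genes, Myh6 included (730070 to 842501 in control and 543613 to 602375 in SuHx), and of 5 epicardial genes (104 to 240.4 and 273 to 302). Single genes weighed heavily in both sums. Myh6 alone gave 320910 to 386592 in control and 131261 to 173603 in SuHx, and Wt1 gave 85.3 to 233 and 257 to 291 of the epicardial sum. Sums without Myh6 or Wt1 were not compared, so these differences are not read as a shift in cell types. A long transcript value, which moves with RNA quality, was formed from log2 levels centred for each gene on its mean over the 6 libraries. It is the median over 11 genes with long transcripts minus the median over 72 genes for ribosomal proteins. This value was 0.032, -0.048 and -0.80 log2 units in the controls, against 0.073, 0.49 and 0.69 in SuHx (exact permutation p = 0.1, two-sided, the lowest this design can reach). The part of these differences in the rises of Nppb and Npr3 was not tested.

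Npr1, the receptor of ANP and BNP, stood at 244, 242 and 514 normalised counts in the controls, against 249, 260.4 and 247 in SuHx. All SuHx libraries and controls 1 and 2 lay within a narrow range, and control 3 was 2.13 times the lowest control. The log2 fold change was -0.30 (SE 0.29, 95% interval -0.99 to 0.38, limma adjusted p = 0.64), and it was -0.48 without control 1 (adjusted p = 0.49) and 0.055 without control 3 (adjusted p = 0.85). Npr1 is expressed in endothelium among other cells. In control 3, 5 of 10 endothelial markers had their highest value, and the sum of all 10 was 11052, against 6740 to 8897 in the 5 other libraries. The share of all genes that were highest in control 3 was not counted, so the 5 of 10 is not read as an endothelial trait. Fos, an immediate early gene, was also highest in control 3, with 4412 normalised counts there and 62.9 to 607 in the 5 others. The part of either in the Npr1 value of control 3 was not tested.

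For Npr2, the receptor of C-type natriuretic peptide, the values were 384, 436 and 470.3 normalised counts in the controls, against 395, 317 and 424 in SuHx. The groups overlapped, and the log2 fold change was -0.19 (SE 0.17, 95% interval -0.58 to 0.20, limma adjusted p = 0.60). Without control 1 it was -0.27 (limma adjusted p = 0.53), with all 3 SuHx libraries below controls 2 and 3. These intervals leave room for a modest difference in either direction.

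Corin, the protease of the ANP precursor, had the widest scatter among controls after Nppa. It stood at 1807, 1051 and 344 normalised counts in the controls, against 565, 1062 and 992 in SuHx. The SuHx values lay inside the range of the controls, whose highest library had 5.25 times the level of the lowest. The log2 fold change was -0.046 (SE 0.57, 95% interval -1.38 to 1.29, limma adjusted p = 0.97) and 0.48 without control 1 (adjusted p = 0.66), so the direction was not settled by these libraries. Control 1, the highest in Corin, was the library with atrial transcripts, and control 3, the lowest, had the lowest long transcript value, and neither relation was tested.

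Furin, a convertase of many precursors besides that of BNP, varied least between libraries of the control group apart from Npr2. It stood at 1048, 944 and 759 normalised counts in the controls, against 915, 736 and 876 in SuHx. The log2 fold change was -0.12 (SE 0.17, 95% interval -0.51 to 0.28, limma adjusted p = 0.77) and -0.013 without control 1 (adjusted p = 0.98). The interval bounds a fall of Furin at 0.70 of the control level and a rise at 1.22 times it.

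**Figure D3:**
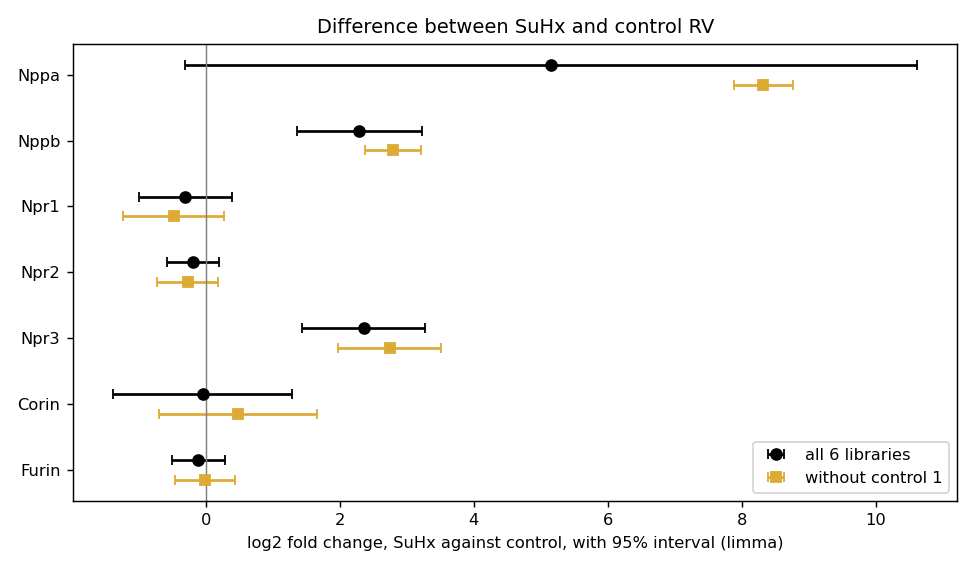
Log2 fold change of SuHx against control for the 7 genes, with 95% intervals from limma, over all 6 libraries (black circles) and without control 1 (yellow squares). Nppb and Npr3 lie above 0 in both fits, and leaving out control 1 narrows the interval of Nppa from -0.31 to 10.62 to 7.88 to 8.76.

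**Figure D4:**
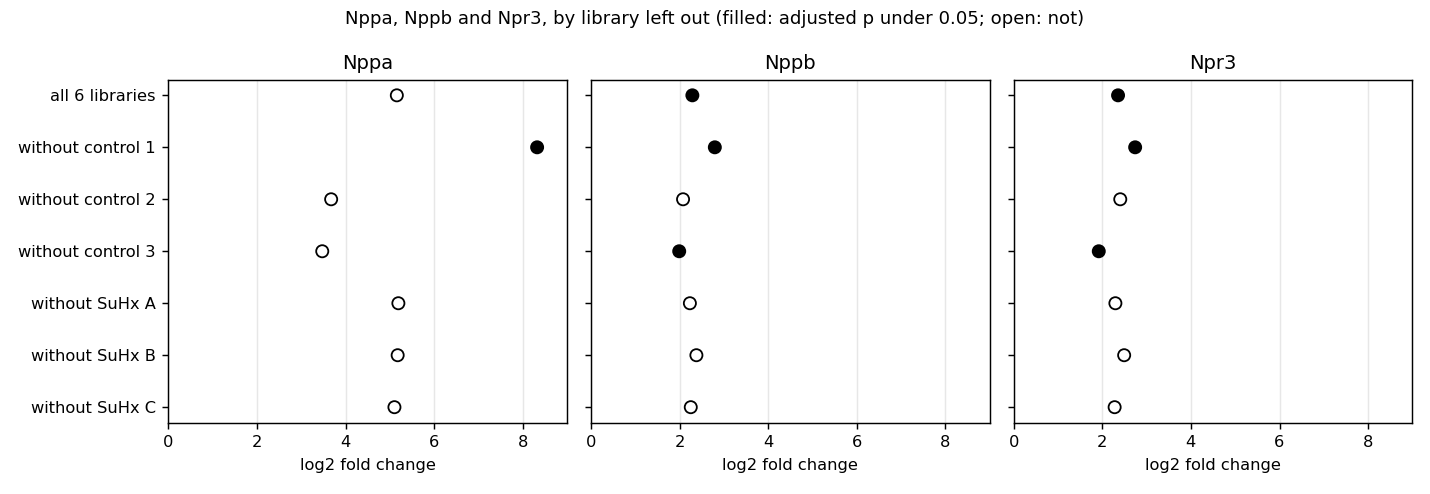
Log2 fold change of Nppa, Nppb and Npr3 over all 6 libraries and with each library left out in turn, filled where the adjusted p from limma was under 0.05 and open where it was not. All values are above 0, Nppa passes only without control 1, and Nppb and Npr3 pass over all libraries and without control 1 or control 3.

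Ratios of members within a library do not depend on how libraries were scaled, apart from the 1 added to each value. They were formed as log2 ratios of normalised counts plus 1 without correction for transcript length, so they are compared between libraries and not read as a level of one gene against another. Npr3 to Npr1, the clearance receptor against the cyclic GMP-making receptor, was at -1.35, -2.01 and -4.06 in the controls, against 0.33, -0.13 and 0.37 in SuHx. All SuHx libraries were above all controls, with a mean difference of 2.66 (exact permutation p = 0.1, two-sided, the smallest that 3 against 3 libraries allow). The difference was 3.22 without control 1 and 1.87 without control 3, the library with the high Npr1. Nppb to Nppa was at -4.79, 3.07 and 3.30 in the controls, against -2.16, -2.49 and -2.38 in SuHx. Here control 1 lay below and controls 2 and 3 above the SuHx libraries, so that the 6 libraries fell into 3 levels, and the mean difference of -2.87 (exact permutation p = 0.4, two-sided) became -5.53 without control 1, -1.60 without control 2 and -1.48 without control 3. The ratio of Nppa and Nppb together to the 3 receptors was 5.71, -0.43 and -1.09 in the controls, against 4.30, 4.51 and 4.39 in SuHx. The mean difference was 3.01 (exact permutation p = 0.4, two-sided), 5.16 without control 1 (p = 0.1, exact permutation, the smallest that 2 against 3 libraries allow) and 1.76 without control 3 (exact permutation p = 0.7). The SuHx libraries agreed closely, with an SD of 0.10, and again lay between control 1 and the other controls. Npr1 to Npr2 and Corin to Furin overlapped between the groups, with mean differences of -0.12 and 0.070 (exact permutation p = 0.8 and 0.9, two-sided), or -0.21 and 0.50 without control 1.

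**Figure D5:**
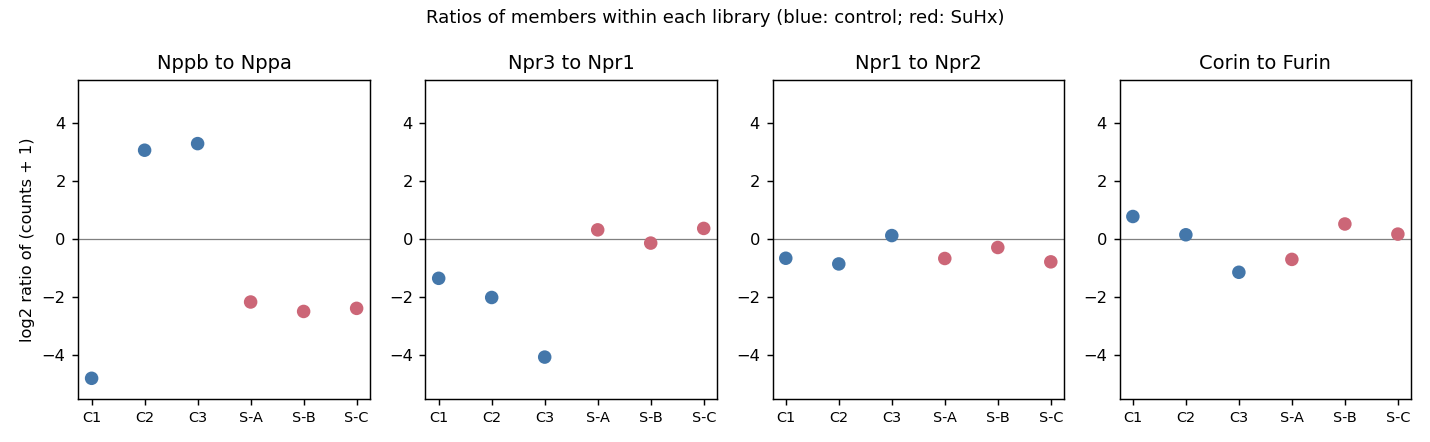
Log2 ratios of normalised counts plus 1 of 2 members within each library, for control libraries 1 to 3 (C1 to C3, blue) and SuHx libraries A to C (S-A to S-C, red). Npr3 to Npr1 separates the groups, from -4.06 to -1.35 in control and from -0.13 to 0.37 in SuHx, and for Nppb to Nppa control 1 lies below and controls 2 and 3 lie above the SuHx libraries.

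As a share of all normalised counts, Nppb took 0.0114%, 0.00394% and 0.00353% in the controls, against 0.0234%, 0.0154% and 0.0263% in SuHx. The groups did not overlap, with means of 0.00628% ± 0.00442 in control and 0.0217% ± 0.00564 in SuHx (SD, n = 3 each, exact permutation p = 0.1, two-sided, the lowest this design can reach). Nppa took 0.316%, 0.000462% and 0.000351% in the controls and 0.105%, 0.0866% and 0.137% in SuHx. Its group means, 0.105% ± 0.182 and 0.109% ± 0.0257 (SD, n = 3 each, exact permutation p = 1, two-sided), were close because control 1 alone carried the control mean. Without control 1 the control mean was 0.000407% for Nppa and 0.00373% for Nppb.

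Of the 8 nearest protein-coding neighbours of Nppb and Nppa in the GRCr8 order of genes, 4 on either side and chosen after the values of the members were seen, 6 had a value and 0 passed limma, also at an unadjusted p under 0.05. Their log2 fold changes ran from -0.84 to 0.34 (adjusted p from 0.35 to 0.83). Among all genes tested, 1.55% were higher and 0.671% lower after adjustment, and 9.61% and 7.59% before it. With 6 genes, 0 calls is near these shares. Clcn6, a chloride transporter gene that follows Nppa, stood at 264, 221 and 257 normalised counts in the controls, against 230.0, 248 and 224 in SuHx. Neither the control 1 level nor the SuHx level of Nppa had a counterpart in Clcn6, whose log2 fold change was -0.075 (SE 0.15, limma adjusted p = 0.83).

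Genes that make, bind or break down cyclic GMP, the messenger of Npr1 and Npr2, formed a list of 21, of which 18 had a value and 13 passed the filter on low values. Among these 0 rose, 1 fell and 12 were without a call (with p under 0.05 before adjustment, 0 higher and 2 lower, against 9.61% and 7.59% of all genes). After adjustment 1.55% of all genes were higher and 0.671% lower. The list's median was -0.17 on the log2 scale. Gucy1a3, a subunit of the soluble guanylate cyclase that nitric oxide activates, stood at 321, 269 and 344 normalised counts in the controls, against 171, 171 and 184 in SuHx. All SuHx libraries were below all controls, and Gucy1a3 fell by 0.82 on the log2 scale (SE 0.15, limma adjusted p = 0.046). No gene of the list passed without control 1 (Gucy1a3 at -0.79, adjusted p = 0.12), without control 2 or without any 1 of the SuHx libraries. A pair of phosphodiesterase genes whose products break down cyclic GMP, named after their values were seen, had log2 fold changes of 0.50 for Pde5a (limma adjusted p = 0.54) and -0.30 for Pde9a (limma adjusted p = 0.64).

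The list of turnover and activation held 19 genes, 13 with a value and 10 tested, of which limma called 0 higher and 0 lower (with p under 0.05 before adjustment, 1 and 1 of the 10, near the 9.61% and 7.59% of all genes). The list's median was 0.31 on the log2 scale. Pam, a peptide-amidating enzyme that is abundant in the secretory granules of atrial myocytes, stood at 20458, 13217 and 6908 normalised counts in the controls, against 24071, 26886 and 32247 in SuHx. The SuHx libraries lay above all controls, but the log2 fold change of 1.16 (SE 0.37) did not pass (limma adjusted p = 0.18). Pcsk6, the convertase that activates corin, had a log2 fold change of 0.39 (SE 0.25, limma adjusted p = 0.48), with 2306 normalised counts in SuHx C and 992 to 1499 in the 5 other libraries. Mme, which encodes neprilysin, a protease that degrades the peptides, stood at 16.8, 21.9 and 7.95 in the controls, against 0, 17.2 and 4.77 in SuHx, and these low values overlapped (named after its values were seen).

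Of 35 transcription factors and cofactors known at the Nppa and Nppb promoters, 30 had a value and 26 were tested. None passed limma in either direction. With p under 0.05 before adjustment, 3 of the 26 were higher and 2 lower, near the 9.61% and 7.59% of all genes, and the median over the list was 0.16 on the log2 scale. Gata4, whose core letters GATAA stand in both promoter windows, stood at 1512, 1451 and 812 normalised counts in the controls, against 2435, 1828 and 1712 in SuHx. The groups did not overlap, and the log2 fold change was 0.70 (SE 0.27, limma adjusted p = 0.25). Tead1, a factor of the M-CAT letters and named after its values were seen, stood at 113, 176 and 20.9 in the controls, against 282, 275 and 279 in SuHx, a log2 fold change of 1.88 (SE 0.69, limma adjusted p = 0.24). Control 3 was the lowest library for Gata4 and Tead1 alike. Egr1, an immediate early factor, stood at 1446, 600.1 and 8152 in the controls, against 653, 273 and 610.3 in SuHx, with a log2 fold change of -2.01 (SE 0.87, limma adjusted p = 0.30).

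Genes of load and of the sarcomere that are commonly measured alongside Nppa and Nppb formed a list of 11, of which 10 were tested. In it 3 rose, 1 fell and 6 were without a call, with a median log2 fold change of 0.30, against 1.55% higher and 0.671% lower among all genes. Before adjustment, 4 were higher and 2 lower at p under 0.05 from limma, against 9.61% and 7.59% of all genes. Without control 1, 2 were higher and 0 lower, against 1.12% and 0.187%. The higher count was 1 without SuHx A, 1 without SuHx B and 0 without SuHx C, and the lower count was 0 without control 2 and without SuHx A, B or C. Over all genes, 34, 36 and 11 were higher without SuHx A, B and C in turn. In the same order 21, 19 and 6 were lower, and 16 were lower without control 2. Xirp2, an actin-binding protein of the intercalated disc, stood at 3340, 4321 and 2091 normalised counts in the controls, against 40035, 24107 and 30624 in SuHx, a log2 fold change of 3.31 (SE 0.30, limma adjusted p = 0.0057). Acta1, skeletal alpha-actin, rose by 3.43 (SE 0.62, limma adjusted p = 0.040, and 0.087 without control 1) and Ankrd1, a stretch-responsive cofactor, by 2.03 (SE 0.30, limma adjusted p = 0.025) on the log2 scale. Myh6, the fast myosin heavy chain, was the gene that was lower, with a log2 fold change of -1.29 (SE 0.24, limma adjusted p = 0.043, and 0.10 without control 1). Control 1, with its high Nppa, had 1592 normalised counts of Acta1, below both other controls (6589 and 2766), and its 3340 of Xirp2 lay between theirs.

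Genes whose pattern was most like that of Nppa or Nppb were taken by Pearson's r of log2(normalised count + 1) over libraries, among 7685 other genes with a mean of at least 50. With so few points that share library preparation and depth, r is a description only. Over the 6 libraries Nppb was most like Postn (r = 0.996), which encodes the matricellular protein periostin, then Zfp367 (0.995), Fibin (0.995), Fstl3 (0.989) and B4galt5 (0.987). Postn stood at 49.4, 19.8 and 20.8 normalised counts in the controls, against 118, 89.4 and 123 in SuHx, the same order of a higher control 1 below all SuHx libraries that Nppb had. Nppa was most like Lpar1 (r = 0.981), Ddah1 (0.981), Aebp1 (0.978), Wisp2 (0.976) and Btbd8 (0.974). Ddah1, which encodes an enzyme that degrades an inhibitor of nitric oxide synthase, stood at 1032, 392 and 406 in the controls and 1058, 885 and 1144 in SuHx, with control 1 at the level of SuHx. Over the 5 libraries without control 1, the genes most like Nppa were Uhrf1bp1l (r = 0.999), Nupr1 (0.999), Thbs4 (0.999), Pc (0.999) and Gorasp2 (0.998), and those most like Nppb were Dusp15 (0.999), Pc (0.998), Nupr1 (0.997) and Iscu (0.996). Pc and Gorasp2 were listed at 0 in all controls, which can be a failed estimate. Thbs4, which encodes a thrombospondin of the matrix, stood at 69.6, 11.5 and 9.93 normalised counts in the controls, against 969, 1195 and 955 in SuHx, and so was low in control 1, where Nppa was at its highest.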

How the data were processed

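RNA of 3 control and 3 SuHx RV libraries was sequenced by the authors. Per the labels and the study's methods, transcript quantification used Salmon 0.14.1, with the mouse build GRCm38.p6 named for the index although the tissue is rat, and normalisation used DESeq2 1.24.0. Gene names among the values include rat ones such as RGD1305350, so the index behind the values is not settled. The deposited values are a normalised signal per gene, in 1 column per library without pooling. Low values differ between genes within a library, so whole reads were not recovered, no count model was run and the depth in reads is not given. An entry with no gene name, at most 0.00514% of a library, was left out.

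The 8 genes and all lists were chosen with earlier results of these data known. Genes with a mean of at least 10 were compared as log2(value + 1) in limma (version 3.58.1, under R 4.3.3; moderation along a mean-variance trend, two-sided) with Benjamini-Hochberg adjustment over all tested genes. All 7 measured members passed this filter. This scale understates changes of low genes. Ratios and shares were compared by exact permutation of 3 against 3 libraries. From each list, the called genes were named or, with none, the 2 of highest mean, and for likeness the 5 genes of highest r, of which 1 is not reported here. Alternatives covered the pseudocount, the filter, 4 other scalings, the moderation and left-out libraries. The procedure was run on simulated counts with the same dispersion for every gene and library and no odd library. That setting does not cover controls as unlike each other as these. The second deposited table pairs library names with groups and holds no measurement. Promoter sequences are RefSeq's (GRCr8), a build other than that named for the values, so the files' own coordinates are not given. Figures were drawn with matplotlib 3.10.9.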

Additional observations from a re-analysis of the deposited data

How the results depend on the processing

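Nppb and Npr3 stayed higher in SuHx under all 17 alternatives, with log2 fold changes of 1.97 to 2.79 (adjusted p 0.0025 to 0.16 from limma) and 1.92 to 2.74 (0.014 to 0.16). With no mean-variance trend neither passed (0.077 and 0.068), so 0 of the 7 members did. The log2 fold change of Nppa ran from 3.47 without control 3 to 8.32 without control 1, and it passed only without control 1 and without controls 1 and 3 together. Over all genes, 90 were higher and 191 lower with all libraries at the same total, where the median log2 fold change was -0.31. The counts were 83 and 38 with no mean-variance trend, and 97 and 8 without controls 1 and 3 together. At the same total 4 genes of the load list were higher and 2 lower. With 1 library left out, the counts of all genes ran from 11 to 266 higher and 6 to 136 lower, of members from 0 to 3 higher, of the load list from 0 to 4 higher and 0 to 1 lower, and of the cyclic GMP list from 0 to 1 lower. Directions turned for members and ratios that did not pass. Corin ran from -0.71 to 0.48 and Npr1 from -0.49 to 0.055 with 1 library left out (0.061 without controls 1 and 3 together). Npr1 to Npr2 ran from -0.31 to 0.18, Corin to Furin from -0.47 to 0.50, and the difference in the share of Nppa from -0.049 to 0.11 percentage points. The causes were not tested. No paired analysis was possible because the SuHx libraries are not tied to numbered samples. With 3 libraries a group, p-values of single ratios could not go below 0.1.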
